A study of Mus musculus with 7 samples.

Results

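The late neutrophil granule and calgranulin genes were taken as Mmp8, Camp, Ngp, Cd177, S100a9, Stfa3, G0s2 and Anxa3. Every probe set of the value table that the platform annotation assigned to exactly 1 of these symbols was used. All 8 genes were measured, each by 1 probe set, out of 8378 genes and 16255 probe sets in the series. Expression was measured with 7 Affymetrix Mouse430_2 arrays in marrow harvested from mouse recipients of bone marrow transplants. Unsorted marrow of recipients of cells expressing a mock control gave 3 arrays, and unsorted marrow of recipients of cells carrying ABCG2, a drug efflux pump, gave 2 arrays. Marrow carrying EZH2-Mt, a form of the Polycomb histone methyltransferase EZH2, came from a recipient described as MDS-like (MDS is taken as myelodysplastic syndrome) and was sorted on green fluorescent protein (GFP) into a GFP-negative and a GFP-positive fraction, with 1 array each. All groups share the transplant itself. The strain, age and sex of the mice, the vector and the promoter that drove each transgene, the part of the marrow that carried it and the host cells that remained are not given in the sources used here.

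Neutrophils fill their granules in order as they mature in the marrow. Promyelocytes make the primary granules with myeloperoxidase and serine proteases, myelocytes and metamyelocytes make the secondary granules with lactoferrin and cathelicidin, and band cells add tertiary granules with gelatinase, while the S100 calgranulins accumulate in the cytosol. Of the genes described here, Mmp8 encodes neutrophil collagenase, Camp the cathelicidin antimicrobial peptide and Ngp neutrophilic granule protein, and all of these are granule proteins. Cd177 encodes a surface glycoprotein of neutrophils that binds Pecam1, and S100a9 encodes the calgranulin that pairs with S100a8 to form calprotectin. Stfa3 encodes a stefin, an inhibitor of cysteine proteases in the cytosol, G0s2 an inhibitor of the triglyceride lipase Pnpla2, and Anxa3 a calcium-dependent phospholipid-binding annexin, so not every gene of the set encodes a granule content protein.

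RefSeq promoters (assembly GRCm38.p6) were matched for 7 of the 8 genes, all except Anxa3, and those of 5 are printed because they stand for the different patterns across the arrays described further on: Mmp8, with a very large fall under ABCG2, Camp, Ngp and S100a9, with smaller falls and higher values in the GFP-positive fraction, and Stfa3, which did not pass the test. Each sequence is the 250 bases before the transcription start on the strand of the gene, 5′ to 3′, and capitals mark motif matches on either strand.
Mmp8: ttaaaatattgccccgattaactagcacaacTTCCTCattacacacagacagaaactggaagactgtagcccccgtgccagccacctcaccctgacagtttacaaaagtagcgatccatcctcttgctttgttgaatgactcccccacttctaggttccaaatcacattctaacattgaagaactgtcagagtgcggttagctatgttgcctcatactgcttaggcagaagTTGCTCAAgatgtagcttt
Camp: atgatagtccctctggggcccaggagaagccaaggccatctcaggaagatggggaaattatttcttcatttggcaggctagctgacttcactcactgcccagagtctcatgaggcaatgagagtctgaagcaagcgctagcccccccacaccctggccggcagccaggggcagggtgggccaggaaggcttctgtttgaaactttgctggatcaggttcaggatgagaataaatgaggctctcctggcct
Ngp: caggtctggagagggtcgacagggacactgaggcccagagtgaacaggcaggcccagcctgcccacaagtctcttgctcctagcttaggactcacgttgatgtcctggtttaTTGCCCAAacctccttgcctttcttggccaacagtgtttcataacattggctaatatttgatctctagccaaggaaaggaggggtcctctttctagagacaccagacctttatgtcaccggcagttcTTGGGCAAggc
S100a9: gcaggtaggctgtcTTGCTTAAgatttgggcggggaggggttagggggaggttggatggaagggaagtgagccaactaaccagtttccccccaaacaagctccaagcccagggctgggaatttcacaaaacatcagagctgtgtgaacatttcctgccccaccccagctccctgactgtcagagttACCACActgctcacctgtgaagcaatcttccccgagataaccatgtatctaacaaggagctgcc
Stfa3: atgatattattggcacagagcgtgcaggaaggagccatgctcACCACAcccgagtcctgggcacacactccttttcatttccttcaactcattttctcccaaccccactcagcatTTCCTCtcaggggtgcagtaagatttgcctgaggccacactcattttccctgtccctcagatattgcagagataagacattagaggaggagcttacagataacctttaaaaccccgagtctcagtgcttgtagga
These windows lie at chr9:7558179-7558428 (plus strand) for Mmp8, chr9:109849457-109849706 (minus strand) for Camp, chr9:110419558-110419807 (plus strand) for Ngp, chr3:90695722-90695971 (minus strand) for S100a9 and chr16:36455393-36455642 (minus strand) for Stfa3. The motifs searched were TTGCNNAA for C/EBP factors, GAGGAA for PU.1, TGTGGT for RUNX factors and TATAAA for the TATA box, on both strands, and no 2 matches in these genes overlapped. A C/EBP match was present in 3 of the 7 promoters, against 9.56% of all 32851 promoters of the table: in Mmp8 from 19 to 12 bases before the start, in Ngp from 138 to 131 and from 11 to 4, and in S100a9 from 236 to 229. The PU.1 letters were found in 3 of 7 (Mmp8, Cd177 and Stfa3) against 23.3% of all promoters, the RUNX letters in 2 of 7 (S100a9 and Stfa3) against 14%, and the TATA letters in 1 of 7 (Cd177) against 12.4%. Camp and G0s2 held none of these letters in this window. These matches describe the letters only and say nothing of binding.

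The deposited values are log signals, read as log2, centred on the median of each probe set over the 7 arrays, so a value of 0 is that median and levels of different genes cannot be compared. The logarithm's base was not stated, and each fold here assumes base 2. Only probe sets with a Present or Marginal call on all arrays were in the table, so a low value is a low detected signal. Over all 16255 probe sets the SD of the centred values was 0.33 to 0.42 on the mock arrays, 1.06 and 1.13 on the ABCG2 arrays, 0.41 on the GFP-negative array and 0.54 on the GFP-positive array. The endogenous Abcg2 probe set read -0.92 and -0.91 on the arrays labelled ABCG2 and -0.17 to 0.02 on the mock arrays. These values do not check the label, since the sources used here do not give the species of the transgene or its overlap with this probe set, and every direction given for ABCG2 holds for the arrays so labelled. Only the ABCG2 titles hold a series tag, and if it marks a batch, batch and transgene cannot be told apart.

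The first comparison asked how the genes differed between ABCG2 and mock marrow. Of the 8 genes, 7 fell and 0 rose in ABCG2 marrow: Mmp8, Anxa3, G0s2 and Cd177 by 64.9-fold to 105-fold, Camp by 14.2-fold, Ngp by 5.96-fold and S100a9 by 3.23-fold, while Stfa3 did not pass the test. These sizes are those of the values as deposited and were smaller after quantile normalization, with log2 differences of -4.56 for Mmp8, -3.60 for Anxa3, -3.76 for G0s2, -3.46 for Cd177, -1.79 for Camp and -1.32 for Ngp, all still called. Quantile normalization was applied to the centred values, whose spread was wider on the ABCG2 arrays (SD 1.06 and 1.13). It gives every array the same spread, so differences of ABCG2 from mock shrink by its design. Smaller sizes and lost calls under it follow in part from that design and cannot show which size is right. A gene was called where its adjusted p was under 0.05 (limma, Benjamini-Hochberg over all probe sets, two-sided). By the same rule 25.3% of all probe sets were called lower and 31.5% higher. The median difference was -4.92 over the 8 genes and 0.11 over all probe sets. On 7 of the 8 genes both ABCG2 arrays lay below all 3 mock arrays, as they did in 32.6% of all probe sets. A sign of RNA quality moved with the groups: the Actin control signal at the 3′ end minus that at the 5′ end was 0.40 and 0.42 on the ABCG2 arrays and -0.05 to 0.04 on the mock arrays, while for Gapdh it was -0.08 and -0.11 on ABCG2 and -0.08 to 0.10 on mock. The manufacturer's hybridization control probe sets differed too, with medians of -0.31 and -0.43 on the ABCG2 arrays and -0.01 to 0.01 on mock. The lowest of them read -3.46 and -4.07 on the ABCG2 arrays, while none was below -0.48 on mock. The part of RNA quality and of these controls in the result was not tested. In whole marrow, fewer cells of a type and less RNA per cell cannot be told apart. Because the labels do not number the mice, p-values here reflect only the spread from array to array, which may be technical.

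**Figure D1:**
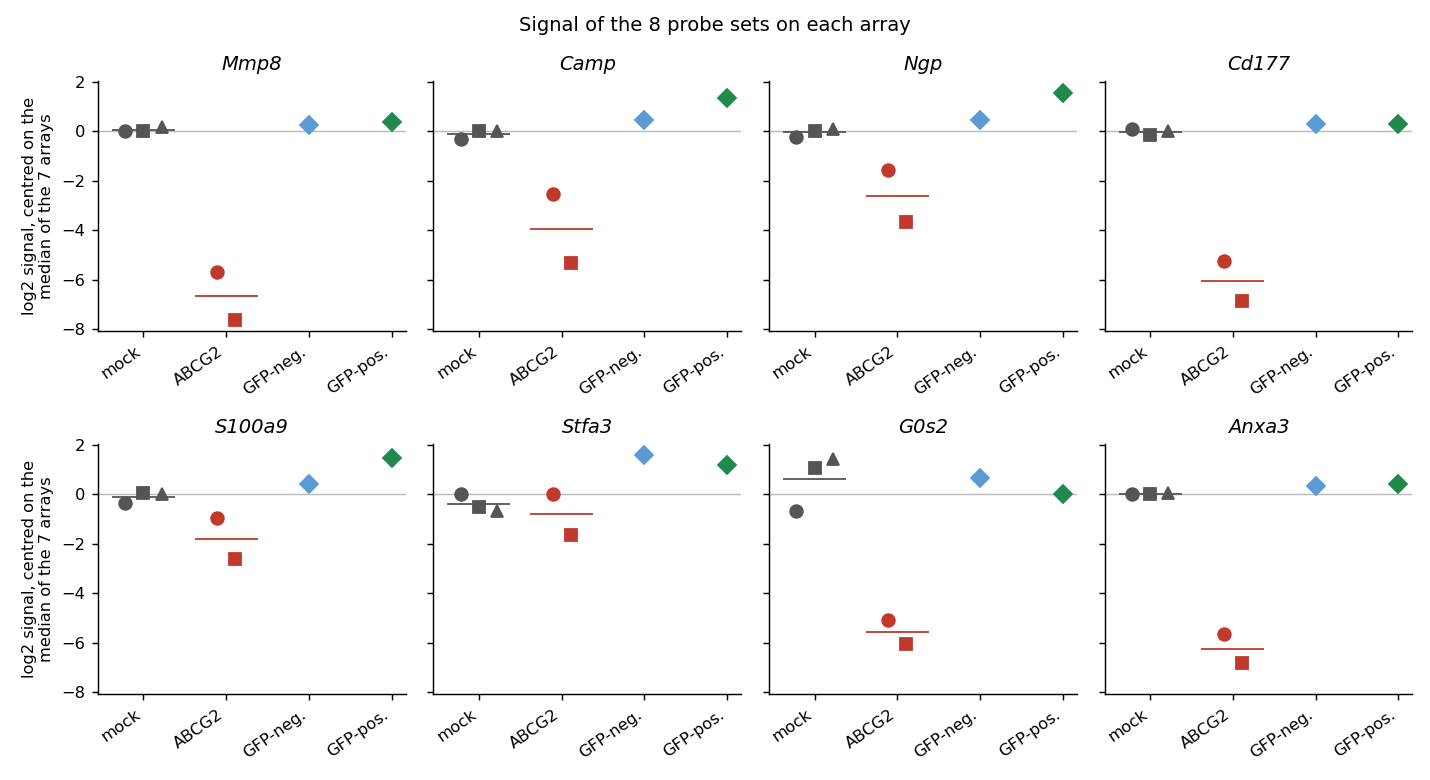
Centred log2 signal (vertical axis) of the 8 genes on each of the 7 arrays, 1 point per array, by group, with a line at the mean of the mock and of the ABCG2 arrays. The ABCG2 arrays lie far below the mock arrays for Mmp8 (-5.69 and -7.62), Cd177, G0s2 and Anxa3, while for Stfa3 ABCG2 replicate 1 (0.02) lies above all mock arrays.

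Among the granule proteins, Mmp8 read 0.00, 0.00 and 0.19 on the mock arrays, -5.69 and -7.62 on the ABCG2 arrays, 0.25 on the GFP-negative and 0.37 on the GFP-positive array. Its mock values were tight and far above both ABCG2 values, and the difference of -6.71 ± 0.51 (SE, n = 2 and 3 arrays; 95% interval -7.94 to -5.49; limma adjusted p = 0.000148) was the fourth lowest of all probe sets. Camp read -0.30, 0.00 and 0.02 on mock, -2.54 and -5.31 on ABCG2, 0.47 on GFP-negative and 1.36 on GFP-positive. Both ABCG2 arrays were below every mock array, but replicate 2 differed from replicate 1 by -2.77, and the difference was -3.83 ± 0.72 (95% interval -5.56 to -2.09; limma adjusted p = 0.0047). Ngp, whose protein belongs with Camp to the cystatin and cathelicidin superfamily, read -0.23, 0.00 and 0.12 on mock, -1.56 and -3.67 on ABCG2, 0.45 on GFP-negative and 1.55 on GFP-positive. Its pattern was that of Camp with smaller falls, and its difference was -2.58 ± 0.56 (95% interval -3.92 to -1.24; limma adjusted p = 0.00817).

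The surface glycoprotein gene Cd177 read 0.11, -0.15 and 0.00 on mock, -5.22 and -6.84 on ABCG2, 0.32 on GFP-negative and 0.31 on GFP-positive. The groups were far apart, with a difference of -6.02 ± 0.44 (95% interval -7.07 to -4.97; limma adjusted p = 0.000129). Anxa3 read 0.00, 0.00 and 0.03 on mock, -5.66 and -6.83 on ABCG2, 0.35 on GFP-negative and 0.43 on GFP-positive. With the smallest mock SD of the 8 genes, 0.02, it had a difference of -6.26 ± 0.32 (95% interval -7.04 to -5.48; limma adjusted p = 4.43e-05). G0s2, the lipase inhibitor, read -0.68, 1.07 and 1.43 on mock, -5.08 and -6.04 on ABCG2, 0.67 on GFP-negative and 0.00 on GFP-positive. Here mock replicate 1 lay well below the other mock arrays (SD 1.13, n = 3), yet still above both ABCG2 arrays, and the difference was -6.17 ± 0.64 (95% interval -7.70 to -4.64; limma adjusted p = 0.000453).

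The calgranulin gene S100a9 read -0.36, 0.05 and 0.00 on mock, -0.96 and -2.63 on ABCG2, 0.42 on GFP-negative and 1.45 on GFP-positive. The groups did not overlap, although ABCG2 replicate 1 lay only 0.85 below the mock mean, and the difference was -1.69 ± 0.46 (95% interval -2.79 to -0.59; limma adjusted p = 0.0195). Its call was lost without mock replicate 2 (-1.62, limma adjusted p = 0.0596), without mock replicate 3 (-1.64, limma adjusted p = 0.0578), and after quantile normalization (-0.83, limma adjusted p = 0.0941). Stfa3 read 0.00, -0.53 and -0.69 on mock, 0.02 and -1.65 on ABCG2, 1.58 on GFP-negative and 1.2 on GFP-positive. The ABCG2 arrays lay on either side of the mock range, and the difference of -0.40 ± 0.48 (95% interval -1.56 to 0.75; limma adjusted p = 0.499) did not pass the test. Without ABCG2 replicate 1 it became -1.24, and without ABCG2 replicate 2 it became 0.43, so 1 array decided its direction. Stefin genes of the mouse are near-identical copies, so the signal of Stfa3 may be shared with other family members.

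**Figure D2:**
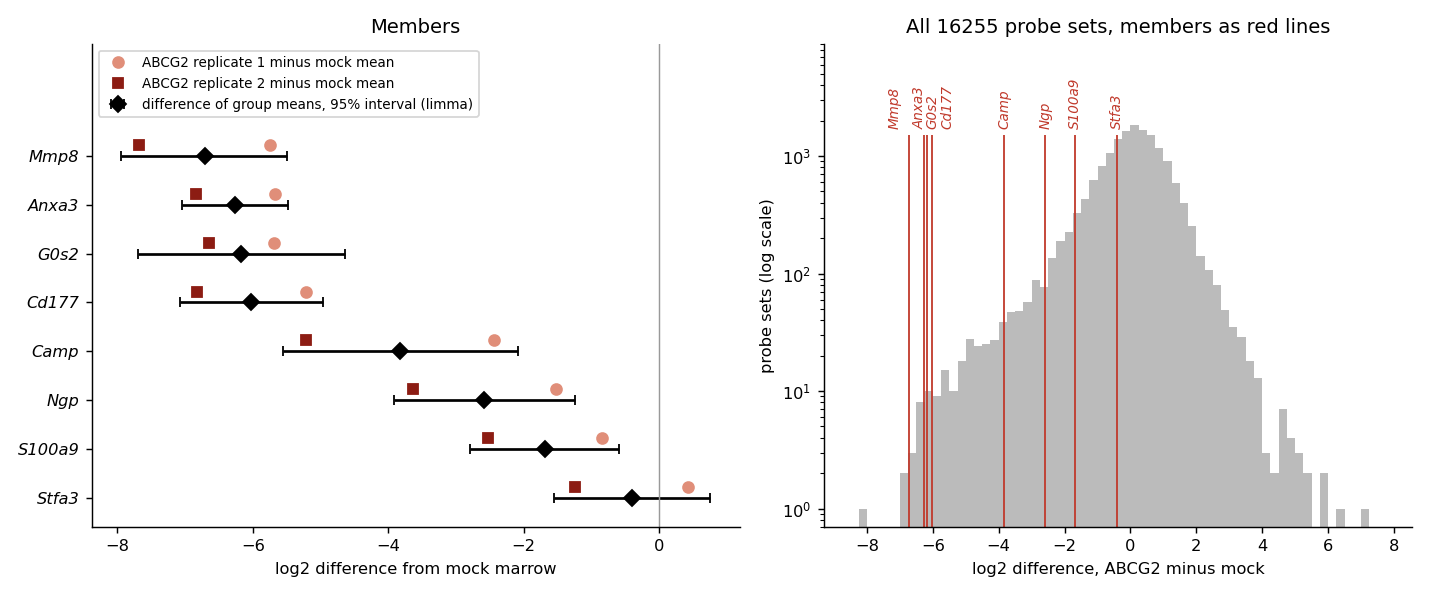
Difference between the ABCG2 and mock means (log2) with its 95% interval for each of the 8 genes (black), with each ABCG2 array minus the mock mean (coloured points), beside the distribution over all 16255 probe sets. The intervals of 7 genes lie below 0, and that of Stfa3 (-1.56 to 0.75) includes 0.

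The ABCG2 arrays also differed from each other on these genes. ABCG2 replicate 2 lay below replicate 1 for 8 of 8 genes, against 44.3% of all probe sets, and by 2-fold or more for 7 of 8, against 3.31%. The difference of replicate 2 from replicate 1 was -2.77 for Camp, -2.10 for Ngp, -1.93 for Mmp8, -1.67 for S100a9, -1.67 for Stfa3, -1.62 for Cd177, -1.16 for Anxa3 and -0.96 for G0s2. Its median was -1.67 over the 8 genes and 0.04 over all probe sets. This order was not particular to the 8 genes. The mean signal on replicates 1 and 2 was -4.39 and -5.07 for the primary granule list described below. It was -3.74 and -4.78 for other secondary and tertiary granule genes and -3.55 and -4.41 for mature neutrophil genes. For NADPH oxidase genes it was -2.12 and -2.01, the other order. Relative to the mock mean, Camp was at -2.44 on ABCG2 replicate 1 and -5.21 on replicate 2, Ngp at -1.52 and -3.63, and S100a9 at -0.85 and -2.53. With replicate 2 left out, the ABCG2 values of these genes are those of replicate 1, more than 1.5 times nearer to mock than the mean of both arrays. For Mmp8, Cd177, G0s2 and Anxa3, the ABCG2 array nearer to mock lay at -5.75, -5.21, -5.69 and -5.67 from the mock mean. These are differences between single arrays and carry no test.

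**Figure D3:**
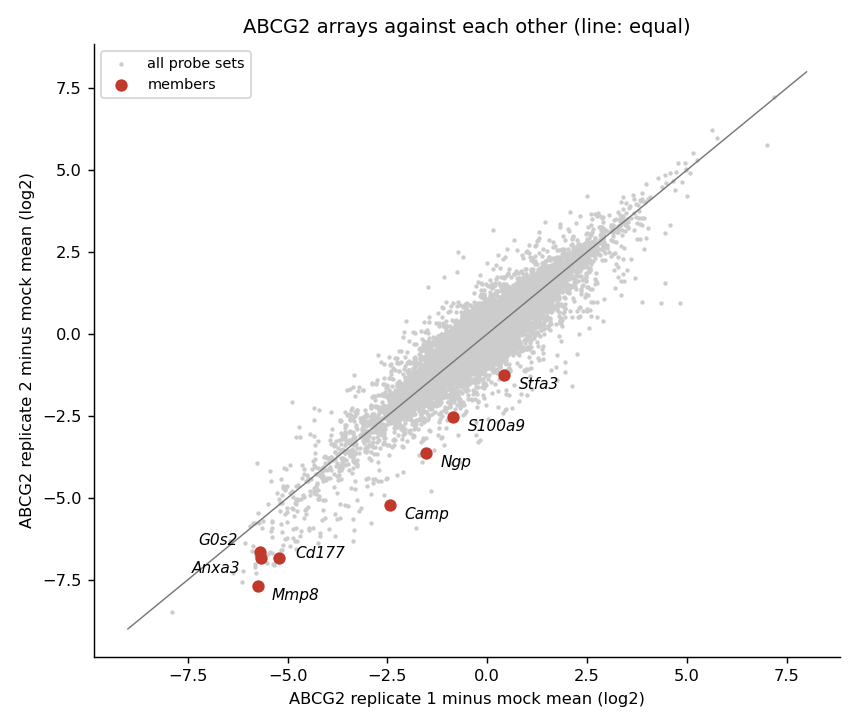
Difference of each ABCG2 array from the mock mean (log2), replicate 1 on the horizontal and replicate 2 on the vertical axis, with every probe set in the background and the 8 genes labelled. All 8 genes lie below the diagonal, from Stfa3 (0.43 and -1.24) to Mmp8 (-5.75 and -7.68).

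The second comparison set each sorted EZH2-Mt fraction against the mock arrays. Camp, Ngp, S100a9 and Stfa3 were higher by 2-fold or more in the GFP-positive fraction, and Stfa3 alone in the GFP-negative fraction. Each fraction is 1 array, so these are values without a replicate check, and the mock marrow was not sorted. The GFP-positive array differed from the mock mean by 1.45 for Camp (2.74-fold), 1.59 for Ngp (3.01-fold), 1.55 for S100a9 (2.93-fold) and 1.61 for Stfa3 (3.05-fold). The remaining genes differed less, by 0.31 for Mmp8, 0.33 for Cd177, 0.42 for Anxa3 and -0.61 for G0s2. That makes 4 of 8 genes at 2-fold or more above mock, against 7.97% of all probe sets. On the GFP-negative array the differences were 0.57 for Camp, 0.49 for Ngp, 0.52 for S100a9, 1.99 for Stfa3, 0.19 for Mmp8, 0.33 for Cd177, 0.34 for Anxa3 and 0.07 for G0s2, so that 1 of 8 passed 2-fold, against 4.1% of all probe sets. Every gene except G0s2 lay above all 3 mock arrays in both fractions, which 43.4% of all probe sets did on the GFP-positive array and 39.1% on the GFP-negative array. G0s2 lay within the mock range in both.

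Between the fractions, Ngp (1.1) and S100a9 (1.03) were higher by 2-fold or more in GFP-positive than in GFP-negative cells, 2 of 8 genes against 3.09% of all probe sets, and Camp was higher by 0.89. After quantile normalization 0 of the 8 genes passed 2-fold between the fractions, with Ngp at 0.79 and S100a9 at 0.74. Mmp8 (0.13), Anxa3 (0.09) and Cd177 (-0.01) lay close together in both fractions, while Stfa3 (-0.38) and G0s2 (-0.67) were lower in the GFP-positive one. The manufacturer's control probe sets moved with the fractions. The median of the 16 hybridization control probe sets was 0.93 on the GFP-negative and 2.20 on the GFP-positive array, against -0.01 to 0.01 on the mock arrays. Subtracting that median from each array, an alternative added after the data were seen, turned the GFP-positive differences from mock to -0.75 for Camp, -0.61 for Ngp, -0.65 for S100a9 and -0.59 for Stfa3. It put the other 4 genes 2-fold or more below mock on that array, G0s2 at -2.81, Mmp8 at -1.89, Cd177 at -1.87 and Anxa3 at -1.77. The median over all probe sets went from 0.08 to -2.12. On the GFP-negative array Stfa3 stayed above mock at 1.06, while the other 7 genes lay below it, from -0.86 for G0s2 to -0.36 for Camp, with a median over all probe sets of -0.87. Between the fractions, all 8 genes were then lower in GFP-positive cells, with differences of -0.18 for Ngp, -0.24 for S100a9 and -0.39 for Camp, and with Mmp8 (-1.15), Anxa3 (-1.19), Cd177 (-1.28), Stfa3 (-1.65) and G0s2 (-1.95) past 2-fold, where the median over all probe sets was -1.25. The Actin 3′ minus 5′ value was 0.31 on the GFP-positive and 0.14 on the GFP-negative array, and that of Gapdh 0.35 and 0.09. The part of the scaling and of RNA quality in these results was not tested, and the directions given for both fractions hold for the values as deposited.

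**Figure D4:**
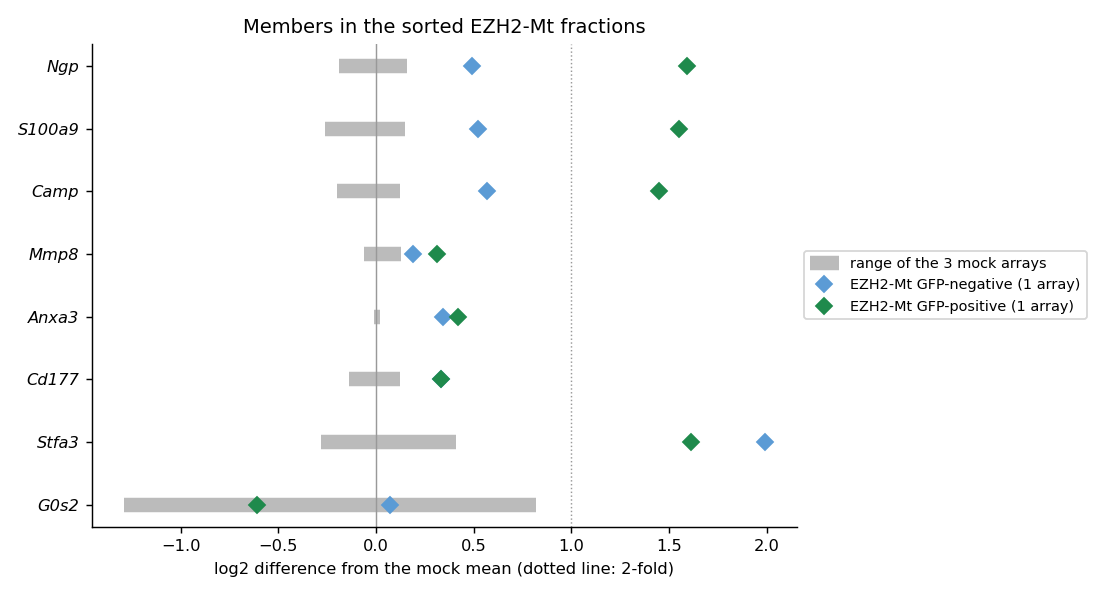
Difference from the mock mean (log2) of the 8 genes on the GFP-negative and the GFP-positive EZH2-Mt array, 1 array each, in values as deposited, with grey bars for the range of the mock arrays. Camp, Ngp, S100a9 and Stfa3 pass 2-fold (1.45 to 1.61) on the GFP-positive array, and these turn negative when the hybridization controls are subtracted.

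Markers of marrow cell types were read from lists of gene means. The measured neutrophil and promyelocyte markers are also genes of the granule and S100 lists described below. Their counts are therefore not separate from the counts of those lists. All 4 of the 10 neutrophil markers that were measured (Ltf, Lcn2, S100a8 and Mmp9) fell in ABCG2 marrow, with a median of -4.06, as did all 4 measured of 5 promyelocyte markers, with a median of -6.19. Of 10 measured monocyte and macrophage markers 8 fell, with a median of -3.63, and their mean signal was 0.50 to 0.84 on the mock arrays and -2.57 and -2.47 on the ABCG2 arrays. Of 9 measured B lineage markers 5 rose, with a median of 3.12, and their mean signal was -1.23 to -0.54 on mock and 1.31 and 1.81 on ABCG2. Over all 8378 genes, 26.2% were called lower and 35.6% higher, with a median of 0.15. Erythroid markers moved with the EZH2-Mt fractions: over the 9 measured of 19, the median difference from mock was 2.55 on the GFP-positive and 0.91 on the GFP-negative array. Monocyte and macrophage markers lay below mock in both fractions, with medians of -1.10 on GFP-positive and -1.36 on GFP-negative. Of the other lists, 4 of 5 measured basophil, mast cell and eosinophil markers fell in ABCG2 marrow and 1 rose (median -4.95), and 5 of 6 measured megakaryocyte and platelet markers fell (median -1.85). Of 4 measured T and NK markers 1 fell and 2 rose (median 0.99), of 5 plasma cell markers 1 fell and 2 rose (median -0.10), and of 9 erythroid markers 3 fell and 2 rose (median -0.05). On the GFP-positive array the median of the B lineage markers was 1.22 above mock, and on the GFP-negative array those of T and NK (2.03) and of basophil, mast cell and eosinophil markers (1.53) were higher and that of plasma cell markers (-1.03) lower. On mock replicates 1, 2 and 3 the mean signal was -1.05, 0.04 and 0.19 for erythroid markers. It was -1.93, -0.27 and -0.65 for T and NK markers and -0.96, 0.42 and 0.44 for basophil, mast cell and eosinophil markers. A low replicate 1 thus lowers the mock mean behind these differences. The medians of the fractions are of values as deposited, and they move with the hybridization controls. The part of these cell types in the values of the 8 genes was not tested.

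The measured genes of the granule lists fell in ABCG2 marrow, where 26.2% of all genes did. All 6 measured of 9 genes of the primary granule list fell (median -5.92). Among them were Mpo, the myeloperoxidase (-6.68), Ms4a3 (-6.26) and Ctsg, cathepsin G (-6.13). All 16 measured of 28 other secondary and tertiary granule genes fell (median -4.60). Pglyrp1, a peptidoglycan recognition protein, had a difference of -5.71 ± 0.41 (limma adjusted p = 7.9e-05 over all genes), Mmp9, the gelatinase, -5.66 ± 0.46, Slpi, an inhibitor of leukocyte proteases, -5.56 ± 0.40, and Ceacam1, an adhesion receptor, -5.45 ± 0.17. Ltf, the lactoferrin of secondary granules, differed by -4.65 ± 0.68 and Lcn2, the siderophore-binding lipocalin, by -3.48 ± 0.50 (limma adjusted p = 0.00141 and 0.00125). Of 28 measured mature neutrophil genes 27 fell (median -4.60), led by the lectin receptor Clec4d, Plbd1, the glycogen phosphorylase Pygl and the receptor Trem3, at -6.20 to -5.86. Ifitm1, an interferon-induced membrane protein gene of that list, rose by 1.67 ± 0.30 (limma adjusted p = 0.0033). All 7 measured genes of the NADPH oxidase, which makes the oxidative burst, fell (median -2.09), with Ncf1 at -3.61 and Cybb at -2.97. Of these, Cybb and Cyba were already counted among the 16 other secondary and tertiary granule genes.

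**Figure D5:**
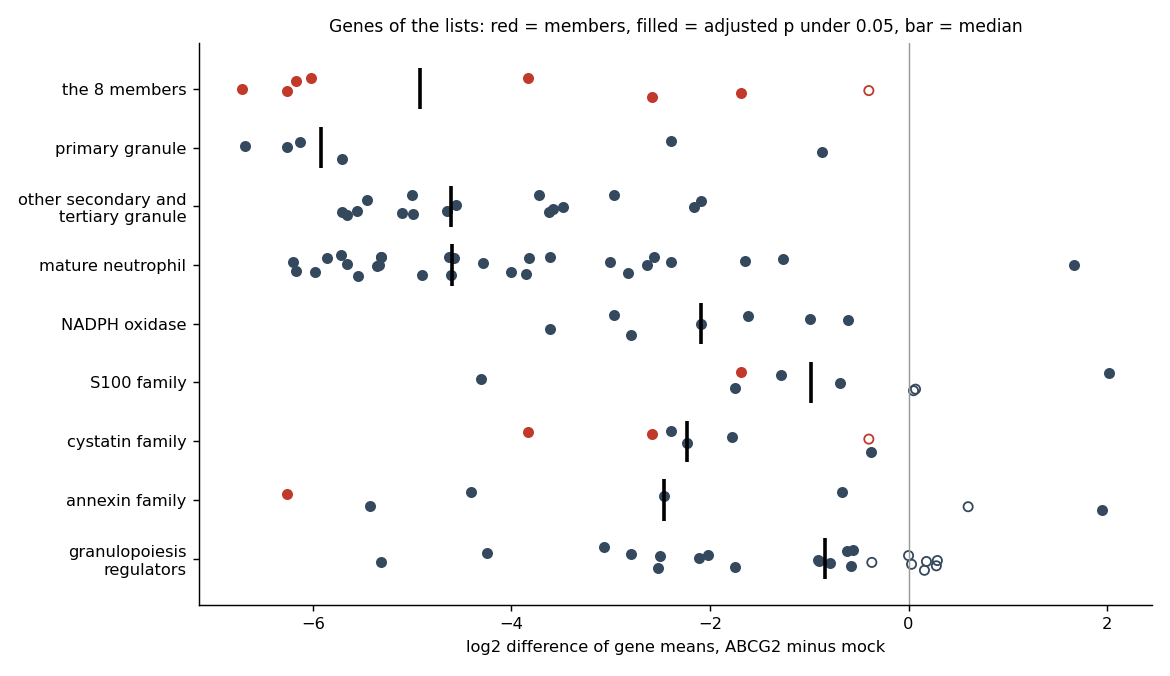
Difference between the ABCG2 and mock means (log2) of each measured gene of the lists, 1 point per gene, by list, filled where the adjusted p was under 0.05, in red for the 8 genes and with a bar at the median. The primary granule genes have a median of -5.92 and the other secondary and tertiary granule genes one of -4.60. The S100 list has a median of -0.99 with genes on both sides of 0. Its only gene called higher, S100pbp (2.02), is not an S100 gene.

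In the EZH2-Mt fractions the lists differed in the values as deposited. On the GFP-positive array 3 of 6 primary granule genes and 5 of 16 other secondary and tertiary granule genes lay 2-fold or more above mock. Of the mature neutrophil genes 1 of 28 did. The share was 7.97% of all probe sets and was not counted over gene means. Mpo was higher by 1.29, Ltf by 1.24, Lcn2 by 1.28 and Chil3, a chitinase-like lectin of secondary granules, by 1.14, and on the GFP-negative array by 0.25, 0.41, 0.41 and 0.28. Mmp9 differed by 0.12 and Pglyrp1 by 0.45 on the GFP-positive array, close to Mmp8 and Cd177. Clec4d (-1.10) and Plbd1 (-0.97) were lower than mock there. The median over the mature neutrophil genes was -0.17 on the GFP-positive and -0.01 on the GFP-negative array. All of these differences move with the hybridization controls in the same way as those of Camp and Ngp.

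The families of the 8 genes were read without the 8 genes themselves, beside 26.2% of all genes called lower and 35.6% called higher. Some genes of the granule and mature neutrophil lists recur in the lists from here on, so those counts are not separate. They are Cst7, Mmp9, Adam8, Prtn3, Itgb2, Dgat2, Cebpd and Cd33. Of 7 other measured genes of the S100 list, 4 fell and 1 rose (median -0.69). With S100a9 counted, 5 fell, and 2 after quantile normalization. S100a8, the partner of S100a9, read -0.34, 0.00 and 0.01 on mock, -0.94 and -1.84 on ABCG2, 0.37 on GFP-negative and 1.23 on GFP-positive, and its difference in the fit over genes was -1.28 ± 0.28 (limma adjusted p = 0.00728), a call lost after quantile normalization (-0.62, limma adjusted p = 0.0962). Both calgranulin genes had a smaller fall than Mmp8 or Cd177 and a higher value in the GFP-positive fraction. S100a6, a calcium-binding protein of many cell types, had a difference of -4.31 ± 0.57 (limma adjusted p = 0.000906), and S100a1 one of -1.75 ± 0.13. The gene that rose was S100pbp (2.02), which encodes a binding partner of an S100 protein and is not an S100 gene.

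Beside Camp, Ngp and Stfa3, 4 genes of the cystatin list were measured, and all 4 fell (median -2.01). Among all genes 26.2% were called lower and 35.6% higher. Cst7, a cystatin of leukocytes, had a difference of -2.39 ± 0.26 and Cst3, the secreted cystatin C, one of -1.78 ± 0.16 (limma adjusted p = 0.000388 and 0.00019). Stfa2l1, a stefin close to Stfa3, differed by -2.23 ± 0.70 (limma adjusted p = 0.0307). That call was lost without mock replicate 1 (-1.81, limma adjusted p = 0.0874) or 2 (-2.39, 0.0599) and after quantile normalization (-1.46, 0.112). Without ABCG2 replicate 2 the difference was -1.07. Stfa2l1 was higher than mock by 0.79 on the GFP-positive and 1.34 on the GFP-negative array, the same order of fractions as Stfa3. Among 6 other annexins 4 fell and 1 rose (median -1.56). Anxa2 differed by -5.42 ± 0.30, Anxa5, which binds phosphatidylserine, by -4.41 ± 0.16 and Anxa1, known for limiting neutrophil entry into tissue, by -2.46 ± 0.19, while Anxa6 rose by 1.95 ± 0.47 (limma adjusted p = 0.0111).

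Beside Mmp8, 6 of 8 measured matrix metalloproteinases, ADAM proteases and inhibitors fell and 1 rose. Among all genes 26.2% were called lower and 35.6% higher. The sheddase Adam8 differed by -4.56 ± 0.17 and the metalloproteinase inhibitor Timp2 by -3.26 ± 0.20, and Adam9 rose by 1.23 ± 0.15, a call lost after quantile normalization (0.67). Beside Cd177, 4 of 6 measured partners and Ly6 family genes fell and 1 rose. Prtn3, the protease that human CD177 holds at the cell surface, had a difference of -5.71 ± 0.21. Plaur, the urokinase receptor, had one of -2.65 ± 0.55, and Ly6d, a gene of early B lineage cells, one of 5.86 ± 0.28. Beside G0s2, 7 of 11 measured genes of lipid droplets and lipolysis fell and 3 rose, against 26.2% and 35.6% of all genes. Plin2, which coats lipid droplets, differed by -2.53 ± 0.28 and Dgat2, which makes triglycerides, by -2.39 ± 0.14. Hilpda, another lipase inhibitor, rose by 2.61 ± 0.44, with Acsl3 (0.98) and Fitm2 (0.61). After quantile normalization Acsl3 (0.64) and Fitm2 (0.40) lost their calls, and Hilpda was the 1 still called. Pnpla2, the lipase that G0s2 inhibits, was looked up after its value was seen and differed by -0.54 ± 0.18 (limma adjusted p = 0.0394). That call was lost without any 1 of the mock arrays (-0.61 to -0.48), and the difference was -0.30 without ABCG2 replicate 1.

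Of 22 measured regulators of granulopoiesis 15 fell and 0 rose (median -0.84), against 9 lower after quantile normalization and 5 higher with the hybridization controls subtracted. Among all genes 26.2% were called lower and 35.6% higher in the main fit. Cebpd, a C/EBP factor of maturing neutrophils, had the largest fall, at -5.31 ± 0.15 (limma adjusted p = 7.33e-06), followed by Csf2ra, a receptor chain for GM-CSF, at -4.25 ± 0.14, Trib1, which promotes decay of C/EBP alpha, at -3.07 ± 0.42, and Spi1, which encodes PU.1, at -2.80 ± 0.12. The call of Trib1 was lost after quantile normalization (-1.97, limma adjusted p = 0.057). Of 8 measured receptors and signalling genes of the S100a8 and S100a9 dimer 6 fell and 0 rose. They included Cd14, a co-receptor for lipopolysaccharide, at -6.05 ± 0.34, Cd33 at -3.62 ± 0.29, Cd36 at -1.94 ± 0.52 and the adaptor Myd88 at -1.78 ± 0.12.

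The patterns of the 8 genes over the 7 arrays fell near different other genes. Likeness was the root mean square (RMS) difference of centred log2 values over the 7 arrays, with gene means and the 8 genes left out as neighbours. It is a description, and all values share the same arrays. Cd177 was nearest to Pygl (0.08), Trem3 (0.19) and Pglyrp1 (0.22), Anxa3 to Pxylp1 (0.13), Csgalnact2 (0.20) and Pygl (0.20), and Mmp8 to Clec4a2 (0.18), Pxylp1 (0.34) and Pygl (0.38). Camp was nearest to Chil3 (0.32), Lcn2 (0.33) and Ifitm6 (0.34), and S100a9 to Prodh (0.29), S100a8 (0.31) and Smox (0.41). Ngp had Cox6b2 (0.39), Afap1 (0.42) and Anxa1 (0.50) as its nearest genes, G0s2 had Ear3 (0.49), Ets2 (0.55) and Mgst1 (0.64), and Stfa3 had Ino80dos (0.49), Dennd4a (0.53) and Baiap3 (0.54). Within the 8 genes the closest pairs were Cd177 with Anxa3 (0.19), Mmp8 with Anxa3 (0.31), Mmp8 with Cd177 (0.36) and Ngp with S100a9 (0.46), and the farthest pair was Mmp8 with Stfa3 (3.20).

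The nearest genes on the chromosome, up to 2 on either side in the order of the RefSeq table, were read last. Of 32 such genes 11 were measured, of which 5 were called lower and 3 higher in ABCG2 marrow, beside 26.2% and 35.6% of all genes. These counts were not tested, and 11 genes are too few to read a difference or its absence from them. S100a8 lies directly beside S100a9. Hsd11b1, which reactivates glucocorticoids and lies directly beside G0s2, had a difference of -2.97 ± 0.25 (limma adjusted p = 0.000141). These were chosen after their values were seen.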

How the data were processed

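Bone marrow RNA of 7 arrays was analysed from the authors' deposited values, which are log2 signals (base assumed) of probe sets, normalized and centred per probe set. Per the file headers, a filter kept raw signals from 3 to 120534 and probe sets called Present or Marginal on 100% of the arrays. The submitters' processing notes name MAS5. The scaling between arrays was not given in the sources used here. After 54 control probe sets were set apart, 16255 remained, and a gene's value was the mean over its probe sets with 1 symbol (14229, giving 8378 genes). ABCG2 and mock arrays were compared with limma 3.58.1 in R 4.3.3 (lmFit, eBayes, two-sided, Benjamini-Hochberg over all probe sets or genes, threshold 0.05), without the single EZH2-Mt arrays, which were set against the mock mean at 2-fold. Scripts were tested on simulated data. Values after ± are limma's standard errors. The number of arrays limits the precision. Same-numbered mock and ABCG2 arrays did not deviate together (r = 0.08 and -0.04), so the main fit has no block. Alternatives were quantile normalization of the centred values, array medians, array weights, a range filter, the replicate block and leaving out each array. Subtraction of the hybridization controls was added after the data were seen. The members and lists were chosen with earlier results of these data known. Genes were named by rule: the members, the 3 nearest genes of each, and per list up to 4 called genes with the largest difference, those that moved the other way, and all of a list with 5 or fewer measured. Cell type markers other than those of neutrophils were an exception to this rule, with only counts, medians and mean signals given.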

Additional observations from a re-analysis of the deposited data

Results flagged for a closer look

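Control probe sets, which no main comparison uses, read higher on both EZH2-Mt arrays than on the mock arrays, where their medians were -0.01 to 0.01. The median of the 16 hybridization control probe sets (bioB, bioC, bioD and cre) was 2.20 on the GFP-positive and 0.93 on the GFP-negative array. The median of the 24 poly-A control probe sets (dap, lys, phe and thr) was 3.50 on the GFP-positive and 1.79 on the GFP-negative array. On the ABCG2 arrays these medians were -0.31 and -0.43 for the hybridization controls and -1.04 and -1.49 for the poly-A controls. The lowest single hybridization control read -3.46 and -4.07 there, while none was below -0.48 on the mock arrays. The part of these signals in the values of Camp, Ngp, S100a9 and Stfa3 was not tested.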

How the results depend on the processing

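Over the alternatives, 6 to 8 of the 8 genes were called lower in ABCG2 marrow, and Mmp8, Camp, Ngp, Cd177, G0s2 and Anxa3 kept direction and call in all of them, though not size, since quantile normalization took them to -4.56 (Mmp8), -1.79 (Camp), -1.32 (Ngp), -3.46 (Cd177), -3.76 (G0s2) and -3.60 (Anxa3). Quantile normalization lowered the calls over all probe sets from 9234 to 4462 and over genes from 5179 to 2880. It took S100a9 to -0.83 (limma adjusted p = 0.0941) and turned Stfa3 to 0.26 (limma adjusted p = 0.654). Because it acted on centred values and evened out the wider spread of the ABCG2 arrays, fewer calls and smaller differences follow in part from its design. With the replicate number as a block, which is no pairing here, 7726 probe sets, 4555 genes and 6 of the 8 genes were called, and S100a9 was -1.64 (limma adjusted p = 0.0715). Leaving out 1 array at a time gave 7570 to 8442 probe sets, 4288 to 4810 genes and 6 to 8 of the 8 genes, with ranges of -7.68 to -5.75 for Mmp8, -5.21 to -2.44 for Camp, -3.63 to -1.52 for Ngp, -6.83 to -5.21 for Cd177, -2.53 to -0.85 for S100a9, -1.24 to 0.43 for Stfa3, -6.81 to -5.69 for G0s2 and -6.84 to -5.67 for Anxa3. A lone ABCG2 array was assumed to vary like the mock arrays. Between the EZH2-Mt fractions, 2 genes higher by 2-fold (Ngp and S100a9) became 0 after quantile normalization, and with the hybridization controls subtracted 5 other genes were lower by 2-fold. On the GFP-positive array against mock, the 4 genes past 2-fold under that subtraction were likewise others, and lower. The controls turned the GFP-positive differences from mock to -0.75 (Camp), -0.61 (Ngp), -0.65 (S100a9) and -0.59 (Stfa3), and those between fractions to -0.18 (Ngp) and -0.24 (S100a9). They turned Baiap3 (ABCG2 minus mock) to 0.08, and Dennd4a was -1.01 without ABCG2 replicate 1 and 0.05 without replicate 2. Of the gene lists' counts under the alternatives, 441 stayed within 1.5 times of the main count and 21 moved further. The causes were not tested.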
